A study of Mus musculus with 15 samples.

Results

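Of the 8 genes described here, 7 encode ectoenzymes, enzymes anchored in the cell membrane with their catalytic site facing outwards, and 1 encodes the surface glycoprotein Cd200. They are Aoc3, Entpd1, Nt5e, Enpp1, Ace, Mme, Anpep and Cd200, chosen by symbol through the Entrez gene ID of each probe set, with their aortic levels already known. All 8 were measured, each by 1 probe set of the 25206 on the array. Expression was measured with Affymetrix Mouse Gene 2.0 ST arrays in 15 mouse samples, 5 groups of 3. Values are RMA values on the log2 scale, so a difference of 1 is a doubling. The aortic group was GFP+ primary smooth muscle cells from mouse aorta carrying Acta2hrGFP, in which green fluorescence (GFP) reports that the smooth muscle actin gene Acta2 is active. The other 12 samples came from induced pluripotent stem cells (iPSC) with the same reporter: undifferentiated cells at day 0, mesodermal progenitors at day 5 sorted as Kdr+ (Kdr, also Flk-1, is a receptor of early mesoderm), and the GFP+ and GFP- sorts of day 13. The cultured samples derive from 1 reporter line and carry the numbers 3, 5 and 6, whereas the aortic samples carry 1, 2 and 3. The sources used here give no age, sex or strain for the aortic donors, and do not say whether aortas were pooled. Each group is described as a biological triplicate, without a statement on separate cultures or animals, so p-values measure only the spread between these samples.

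Ectoenzymes set the concentration of signals just outside the cell. Entpd1 (CD39) removes phosphates from extracellular ATP and ADP to leave AMP, Nt5e (CD73) turns AMP into adenosine, and Enpp1 splits ATP into AMP and pyrophosphate, an inhibitor of vascular mineralisation. The peptidases act on vasoactive peptides: Ace makes angiotensin II and inactivates bradykinin, Mme (neprilysin) degrades natriuretic peptides among others, and Anpep (aminopeptidase N, CD13) trims peptides from their amino end. Aoc3 (vascular adhesion protein 1) is a copper amine oxidase that releases hydrogen peroxide as it deaminates primary amines, and is a known product of vascular smooth muscle and adipocytes. Cd200 has no enzymatic activity and engages an inhibitory receptor on myeloid cells.

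The promoters of 3 of the 4 genes that were highest in the aorta are shown, because these genes have in common a high aortic level and low or intermediate levels in culture. Each window runs from 250 bases before to 50 bases after an annotated start (RefSeq, GRCm38.p6), written 5′ to 3′ on the gene's strand. Capitals mark GGGCGG or TATAAA on either strand, and the same windows were searched for the CArG box, the binding element of serum response factor in smooth muscle genes.
Entpd1 start 1, chr19:40612116-40612415, plus strand: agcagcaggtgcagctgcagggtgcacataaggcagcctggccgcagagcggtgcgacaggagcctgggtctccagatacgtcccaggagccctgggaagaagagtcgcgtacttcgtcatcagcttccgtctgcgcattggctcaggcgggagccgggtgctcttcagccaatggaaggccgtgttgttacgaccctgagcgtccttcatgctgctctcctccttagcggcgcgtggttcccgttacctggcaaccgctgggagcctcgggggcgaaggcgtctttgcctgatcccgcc
Entpd1 start 2, chr19:40659520-40659819, plus strand: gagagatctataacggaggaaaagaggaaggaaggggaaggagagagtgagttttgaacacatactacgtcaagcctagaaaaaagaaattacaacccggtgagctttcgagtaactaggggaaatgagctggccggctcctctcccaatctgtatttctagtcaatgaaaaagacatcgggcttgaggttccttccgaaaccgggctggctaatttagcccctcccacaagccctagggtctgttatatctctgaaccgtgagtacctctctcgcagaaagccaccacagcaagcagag
Ace start 1, chr11:105967698-105967997, plus strand: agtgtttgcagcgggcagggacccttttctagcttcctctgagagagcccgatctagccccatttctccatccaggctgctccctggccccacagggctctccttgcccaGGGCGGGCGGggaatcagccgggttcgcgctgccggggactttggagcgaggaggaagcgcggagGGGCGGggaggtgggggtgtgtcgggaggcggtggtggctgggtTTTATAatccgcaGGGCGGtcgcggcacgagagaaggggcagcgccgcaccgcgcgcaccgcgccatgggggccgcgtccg
Cd200 start 1, chr16:45409004-45409303, minus strand: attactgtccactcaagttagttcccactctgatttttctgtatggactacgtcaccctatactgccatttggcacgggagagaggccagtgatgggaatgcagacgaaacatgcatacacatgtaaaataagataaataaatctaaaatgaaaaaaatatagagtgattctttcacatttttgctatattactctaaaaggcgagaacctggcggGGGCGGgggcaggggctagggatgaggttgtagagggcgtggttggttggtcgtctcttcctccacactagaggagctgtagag
RefSeq promoters were at hand for 7 of the 8 genes, in 11 windows, and Aoc3 is named only. A CArG box was found in 0 of the 11 windows, against 1.63% of the 32851 mouse promoter windows searched in the same way. The first Ace window held 4 GGGCGG motifs, some overlapping, and 1 TATAAA motif, and had a GC content of 69.7%. The window at the second Ace start, not printed here, held 0 of either motif and had a GC content of 59%. The Cd200 window held 1 GGGCGG motif, and both Entpd1 windows held 0 of either motif. Over all windows, 35.7% held GGGCGG and 13.6% held TATAAA. GC content was 64% and 48.7% at the first and the second Entpd1 start and 45% at Cd200, against a median of 52.7% over all windows. These letters are a description of the windows. The single probe set of each gene does not tell its starts apart.

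The smooth muscle identity of the samples was checked against 10 markers. Their mean level per sample was 9.97 to 10.2 in aortic cells, 6.71 to 6.95 in day 13 GFP+ cells and 6.28 to 6.49 in day 13 GFP- cells. Acta2 averaged 12.10 in aortic cells, against 11.32 in day 13 GFP+ and 10.67 in day 13 GFP- cells, and Myh11, the smooth muscle myosin heavy chain, averaged 11.03, against 4.64 and 4.36. Markers of some other cells were also higher in the aortic samples than in day 13 GFP+ cells. The 9 measured fibroblast markers averaged 7.47 to 8.37 per aortic sample, against 4.90 to 5.31 in day 13 GFP+ and 4.43 to 4.75 in day 13 GFP- cells. Of these 9 fibroblast markers, 7 were higher in aortic than in day 13 GFP+ cells, as were 7 of 10 endothelial and 7 of 9 leukocyte markers (limma, adjusted p under 0.05), with 0 lower in each list. Over all probe sets, 17.7% were higher and 19.5% lower in that comparison. Ptprc, the pan-leukocyte CD45, averaged 3.56 in aortic cells, against 1.84 in day 13 GFP+ and 1.92 in day 13 GFP- cells. Its aortic values of 3.34 to 3.71 lay in the low range, given below, that cannot be told from background. The leukocyte list averaged 4.66 to 4.78 per day 0 sample, within its aortic range of 4.56 to 5.15. The endothelial Pecam1 averaged 7.99 in aortic cells, against 4.24 and 5.52 in the day 13 sorts, and also 7.99 at day 0. Another endothelial marker, Cdh5, averaged 6.51 in aortic cells, against 4.77 in GFP+ cells but 6.87 in GFP- cells. The endothelial list averaged 5.33 to 5.69 per aortic sample, against 3.93 to 4.07 in GFP+ and 4.48 to 4.67 in GFP- samples. Of 7 adipocyte markers 3 were higher in aortic than in day 13 GFP+ cells and 0 lower, with list means of 4.75 to 5.23 per aortic sample, against 3.44 to 3.58 in GFP+ and 3.33 to 3.47 in GFP- samples. Among them Fabp4 averaged 9.08, against 2.84 and 2.52, and Adipoq 2.58, against 2.62 and 2.42. In these bulk samples, fewer cells of a type and less RNA per cell cannot be told apart.

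**Figure D1:**
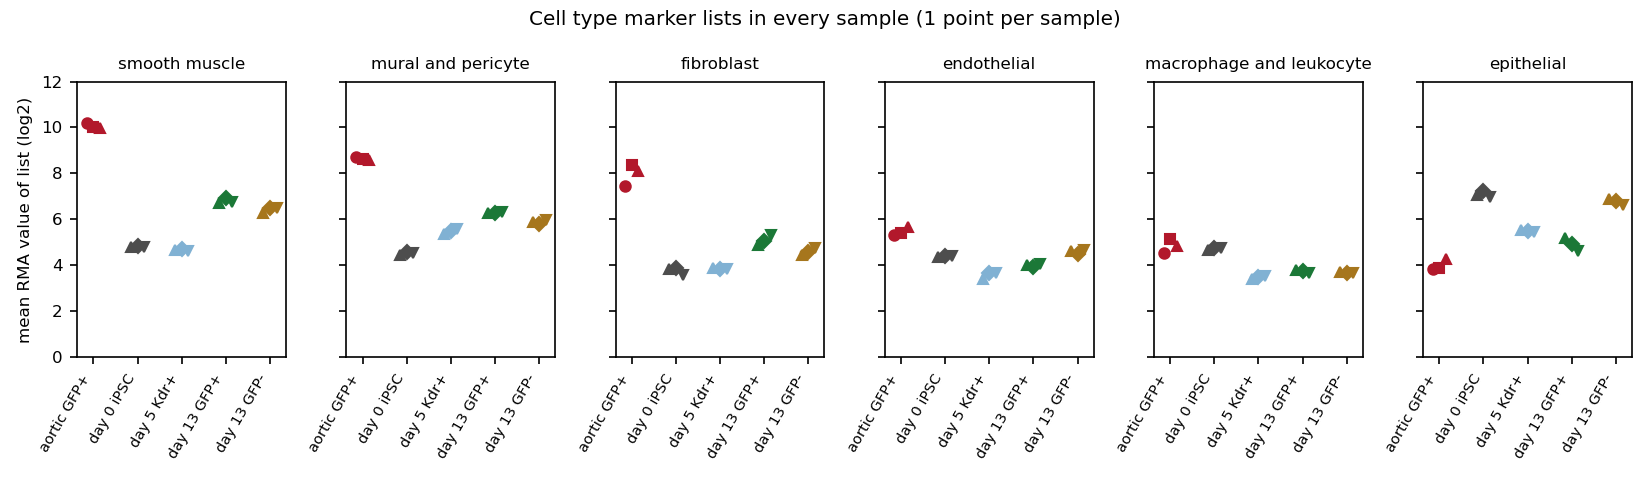
Mean RMA value (log2) of 6 cell type marker lists, 1 point per sample, in the aortic cells and the 4 cultured groups. Smooth muscle, mural, fibroblast and endothelial lists are highest in the 3 aortic samples. The epithelial list is lower in day 13 GFP+ than in day 13 GFP- cells.

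Day 13 samples of number 3 stood apart from those of numbers 5 and 6. The root mean square log2 distance over all probe sets was 0.389 and 0.397 from number 3 to the others in GFP+ cells, against 0.226 between numbers 5 and 6. In GFP- cells the distances from number 3 were 0.458 and 0.443, against 0.218. Results that include day 13 are therefore also given without both number 3 samples where this changes a member's call or moves its aortic difference by over 1.5 times, a step chosen after seeing the data. Array values have no detection call here. As a guide to the low end, 1333 probe sets for olfactory and vomeronasal receptors had a median level of 1.91 and a 95th percentile of 3.80, and a level in that range cannot be told from background here.

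In the aorta, only 4 of the 8 genes stood above every cultured sample. Aoc3, Entpd1, Cd200 and Ace did so, with gaps of 6.10, 5.91, 5.78 and 0.98 on the log2 scale between the lowest aortic and the highest cultured value. Across the array, 11.6% of probe sets lay above all 12 cultured samples in this way and 11.7% lay below them. Nt5e lay below all 12, and Enpp1, Mme and Anpep lay within the cultured range. The name "ectoenzymes of aortic smooth muscle" thus goes against the data for Nt5e and is not borne out as a distinction from the cultures for Enpp1, Mme and Anpep. Because the genes were chosen with their aortic levels known, all aortic values are given as a description without a test.

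**Figure D2:**
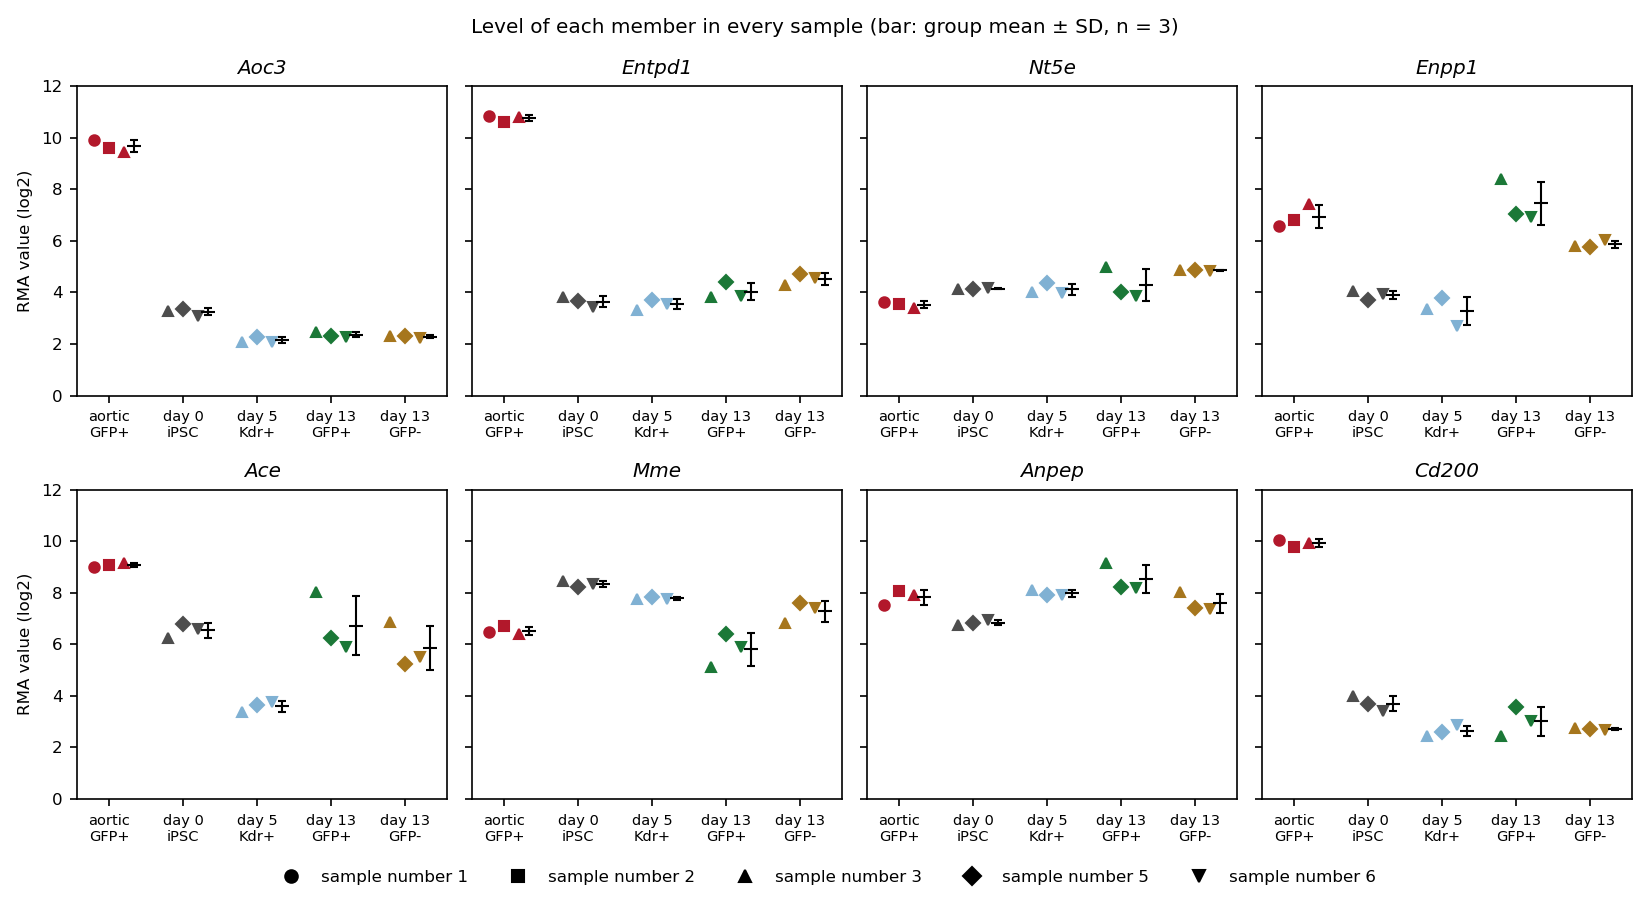
RMA value (log2) of each of the 8 genes in every sample, with the mean and SD of each group (n = 3). Aoc3, Entpd1 and Cd200 are near 10 in the aorta and below 5 in every cultured sample, Nt5e is lowest in the aorta, and Enpp1, Mme and Anpep overlap the cultured range.

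Among the nucleotide enzymes, Entpd1 was high in the aorta and low in every cultured sample. Its levels were 10.85, 10.62 and 10.79 in the aortic samples 1, 2 and 3. In culture they were 3.83, 3.66 and 3.42 at day 0, 3.33, 3.71 and 3.56 at day 5, 3.81, 4.42 and 3.86 in day 13 GFP+ cells and 4.27, 4.70 and 4.56 in day 13 GFP- cells, in the order of numbers 3, 5 and 6. The aortic samples were separated from all others, while each neighbouring pair among the cultured groups overlapped. The aortic mean of 10.75 ± 0.12 (SD, n = 3) was 106-fold above that of day 13 GFP+ cells and 75.9-fold above that of day 13 GFP- cells, and the difference of 6.72 from GFP+ cells ranked 6 of 25206. Entpd1 rose at day 13 against day 5, by 0.98 ± 0.18 (SE) in GFP- cells (limma, adjusted p = 0.000526) and by 0.50 ± 0.18 in GFP+ cells (limma, adjusted p = 0.0427). The second call was lost under median centring (adjusted p = 0.123), under a repeated quantile normalization (0.0953), in a fit of the 2 groups alone (0.072), and without day 5 number 3 (0.18), day 5 number 6 (0.0852) or GFP+ number 5 (0.242). Between the sorts Entpd1 was lower in GFP+ cells in each of the numbers 3, 5 and 6, by differences of -0.45, -0.28 and -0.70. The mean of -0.48 did not pass (limma, adjusted p = 0.175), and passed without GFP+ number 5 (0.0465).

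Nt5e, the next enzyme of that chain, was lowest in the aorta, while its cultured groups ran in the same order of means as those of Entpd1. It measured 3.62, 3.57 and 3.37 in the aortic samples. The cultured values were 4.12, 4.14 and 4.15 at day 0, 4.0, 4.35 and 3.98 at day 5, 4.99, 4.02 and 3.85 in day 13 GFP+ cells and 4.85, 4.88 and 4.81 in day 13 GFP- cells. The aortic samples were the 3 lowest of the 15, and 1 of the 3 GFP+ samples, number 3, was as high as the GFP- samples. In GFP- cells Nt5e rose by 0.74 ± 0.22 (SE) against day 5 (limma, adjusted p = 0.0184). This call was lost under a repeated quantile normalization (adjusted p = 0.0629) and without day 5 number 3 (0.0688), day 5 number 6 (0.0727) or GFP- number 5 (0.0532). Between GFP+ and GFP- cells the difference of -0.56 did not pass (limma, adjusted p = 0.199), but without both number 3 samples it was -0.91 and passed (adjusted p = 0.00383). The mean aortic level of 3.52 ± 0.13 (SD, n = 3) differed by -0.77 from day 13 GFP+ cells and by -1.33 from day 13 GFP- cells on the log2 scale. The first was -0.41 without both number 3 samples, and the aortic values were under the 95th percentile of the receptor probe sets.

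Enpp1, the pyrophosphate-generating enzyme, was the gene of the set that moved most during differentiation. Day 0 values were 4.04, 3.72 and 3.93, and day 5 values 3.35, 3.78 and 2.71. At day 13 it measured 8.41, 7.03 and 6.91 in GFP+ cells and 5.80, 5.76 and 6.01 in GFP- cells. Every GFP+ sample lay above every GFP- sample, and both sorts lay above all earlier samples. Against day 5, Enpp1 was 18-fold higher in GFP+ cells (log2 4.17 ± 0.34, SE; limma, adjusted p = 1.21e-07) and 5.97-fold higher in GFP- cells (2.58 ± 0.34; adjusted p = 3.05e-05). All day 5 values were under the 95th percentile of the receptor probe sets, so the size of both folds depends on the low end of the array. GFP+ cells exceeded GFP- cells by 1.59 (95% interval 0.86 to 2.32), a 3.01-fold difference (limma, adjusted p = 0.0129). That difference was 2.61 in number 3, 1.27 in number 5 and 0.90 in number 6. Without both number 3 samples it was 1.08 and no longer passed (adjusted p = 0.0759). It was also lost without GFP- number 5 (0.0512) and in a fit of the day 13 sorts alone, with no block (0.0919). With the number as a block in that fit of the sorts, chosen after seeing the data, it passed (limma, adjusted p = 0.0139).

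In the aorta Enpp1 measured 6.57, 6.81 and 7.44, overlapping the day 13 GFP+ values. The mean of 6.94 ± 0.45 (SD, n = 3) differed from that of GFP+ cells by -0.51, or by -0.03 without both number 3 samples. It was 1.08 above GFP- cells, or 2.11-fold, with every aortic sample above every GFP- sample.

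Among the peptidases, Ace had a trough at day 5. It measured 6.23, 6.77 and 6.60 at day 0 and 3.37, 3.66 and 3.75 at day 5. At day 13 the levels were 8.02, 6.25 and 5.88 in GFP+ cells and 6.85, 5.23 and 5.49 in GFP- cells. All day 5 samples lay below all others, and number 3 was the highest in both day 13 sorts. Ace fell 7.7-fold at day 5 against day 0 (log2 -2.95 ± 0.45, SE; limma, adjusted p = 9.73e-05). It was 8.74-fold higher than at day 5 in GFP+ cells (3.13 ± 0.45; adjusted p = 4.15e-05) and 4.82-fold higher in GFP- cells (2.27 ± 0.45; adjusted p = 0.00112). All 3 folds are set against day 5 values under the 95th percentile of the receptor probe sets, and their size depends on the low end of the array. Without both number 3 samples the differences from day 5 were 2.48 and 1.77 and still passed.

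The day 13 sorts overlapped for Ace, and their difference of 0.86 (95% interval -0.10 to 1.82) did not pass (limma, adjusted p = 0.416). Day 13 samples of the same number deviated together, and within numbers 3, 5 and 6 the GFP+ value exceeded the GFP- value by 1.17, 1.02 and 0.38. With the number as a block over these 6 samples, a fit chosen after seeing the data, the same 0.86 passed (limma, adjusted p = 0.0172). With the block over all 12 cultured samples it did not. In the aorta Ace measured 9.01, 9.09 and 9.15, a mean 2.37 above GFP+ cells (5.15-fold) and 3.23 above GFP- cells (9.35-fold). Without both number 3 samples the aortic excess was 3.02 over GFP+ and 3.72 over GFP- cells.

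Mme was the 1 member whose lower level in GFP+ than in GFP- cells passed the threshold. It measured 8.44, 8.22 and 8.34 at day 0, 7.77, 7.83 and 7.74 at day 5, then 5.12, 6.41 and 5.88 in day 13 GFP+ cells and 6.82, 7.60 and 7.41 in day 13 GFP- cells. All GFP+ samples lay below all GFP- samples, which lay below all day 5 samples. Against GFP- cells, GFP+ cells were 2.78-fold lower (log2 -1.47, 95% interval -2.01 to -0.94; limma, adjusted p = 0.00281), and the difference was -1.69, -1.19 and -1.53 in numbers 3, 5 and 6. Without both number 3 samples it was -1.36 (adjusted p = 0.000646), but it did not pass in a fit of the day 13 sorts alone, with no block (0.088). With the number as a block in that fit of the sorts, chosen after seeing the data, it passed (limma, adjusted p = 0.000966). Against day 5, GFP+ cells were 3.94-fold lower (-1.98 ± 0.25, SE; limma, adjusted p = 1.21e-05), whereas the -0.51 of GFP- cells did not pass (adjusted p = 0.179). Aortic values of 6.48, 6.70 and 6.40 had a mean between those of the sorts, with differences of 0.72 from the mean of GFP+ cells and -0.75 from that of GFP- cells, and overlapped the GFP+ range but not the GFP- range. Without both number 3 samples these differences were 0.38 and -0.98.

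Anpep, a peptidase of fibroblasts, myeloid cells and brush borders, was higher in GFP+ cells. It measured 9.15, 8.23 and 8.19 in day 13 GFP+ cells and 8.02, 7.42 and 7.36 in day 13 GFP- cells. The sorts did not overlap, and number 3 was again the highest of each. The difference of 0.93 (95% interval 0.42 to 1.43), or 1.90-fold, passed (limma, adjusted p = 0.036) and was 1.13, 0.82 and 0.84 in numbers 3, 5 and 6. It also passed without both number 3 samples (0.83, adjusted p = 0.0150), but not without GFP- number 5 (0.136), GFP- number 6 (0.129) or GFP+ number 3 (0.115). Nor did it pass in a fit of the day 13 sorts alone, with no block (0.205). With the number as a block in that fit of the sorts, chosen after seeing the data, it passed (limma, adjusted p = 0.00359).

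At day 5 Anpep measured 8.11, 7.89 and 7.90, against 6.75, 6.81 and 6.95 at day 0, with no overlap. The rise was 1.13 ± 0.24 (SE; limma, adjusted p = 0.00156). From day 5 to GFP+ cells the difference of 0.56 did not pass (limma, adjusted p = 0.0948). It passed after a repeated quantile normalization (0.0402), cyclic loess (0.0211), without GFP+ number 6 (0.0489) and with the block over the 12 cultured samples (0.0422). The -0.37 of GFP- cells against day 5 did not pass (adjusted p = 0.326), though without both number 3 samples it was -0.58 and did (0.0108). Aortic values were 7.51, 8.08 and 7.90, within the range of the cultures, with differences of -0.70 from the mean of GFP+ and 0.23 from that of GFP- cells. Without both number 3 samples they were -0.38 and 0.44.

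The amine oxidase Aoc3 ranked 1 of 25206 by the excess of aortic over day 13 GFP+ cells. It measured 9.91, 9.61 and 9.45 in the aorta. The cultured values were 3.27, 3.35 and 3.09 at day 0, 2.08, 2.27 and 2.09 at day 5, 2.46, 2.31 and 2.28 in day 13 GFP+ cells and 2.31, 2.30 and 2.22 in day 13 GFP- cells. Day 0 lay above the later cultures, the GFP+ samples lay just above those of day 5, the GFP- samples overlapped both, and all 12 cultured values were under the 95th percentile of the receptor probe sets. The aortic mean of 9.66 ± 0.23 (SD, n = 3) was 159-fold above GFP+ and 167-fold above GFP- cells, folds whose size depends on the low end of the array. Aoc3 fell by 1.09 at day 5 against day 0 (SE 0.13; limma, adjusted p = 7.9e-06). Neither day 13 sort differed from day 5 past the threshold, with differences of 0.20 in GFP+ cells (adjusted p = 0.307) and 0.13 in GFP- cells (adjusted p = 0.592), and GFP+ minus GFP- was 0.07 (adjusted p = 0.913).

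Cd200 had nearly the same profile. It measured 10.06, 9.77 and 9.94 in the aorta, against 3.99, 3.69 and 3.42 at day 0, 2.46, 2.60 and 2.86 at day 5, 2.43, 3.55 and 3.03 in day 13 GFP+ cells and 2.74, 2.73 and 2.67 in day 13 GFP- cells. The aortic samples were separated from the cultures by far, and GFP+ number 3 was the lowest of all 15 samples. The aortic mean of 9.92 ± 0.15 (SD, n = 3) was 121-fold above GFP+ cells, which ranked 4 of 25206, and 148-fold above GFP- cells, folds whose size again depends on the low end of the array. Cd200 fell by 1.06 at day 5 against day 0 (SE 0.22; limma, adjusted p = 0.00156). All Cd200 values at days 5 and 13, and those of day 0 numbers 5 and 6, were under the 95th percentile of the receptor probe sets. The size of its differences within the cultures therefore depends on the low end of the array. The 0.36 of GFP+ cells over day 5 did not pass (limma, adjusted p = 0.275), but without both number 3 samples it was 0.65 and passed (0.0171).

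**Figure D3:**
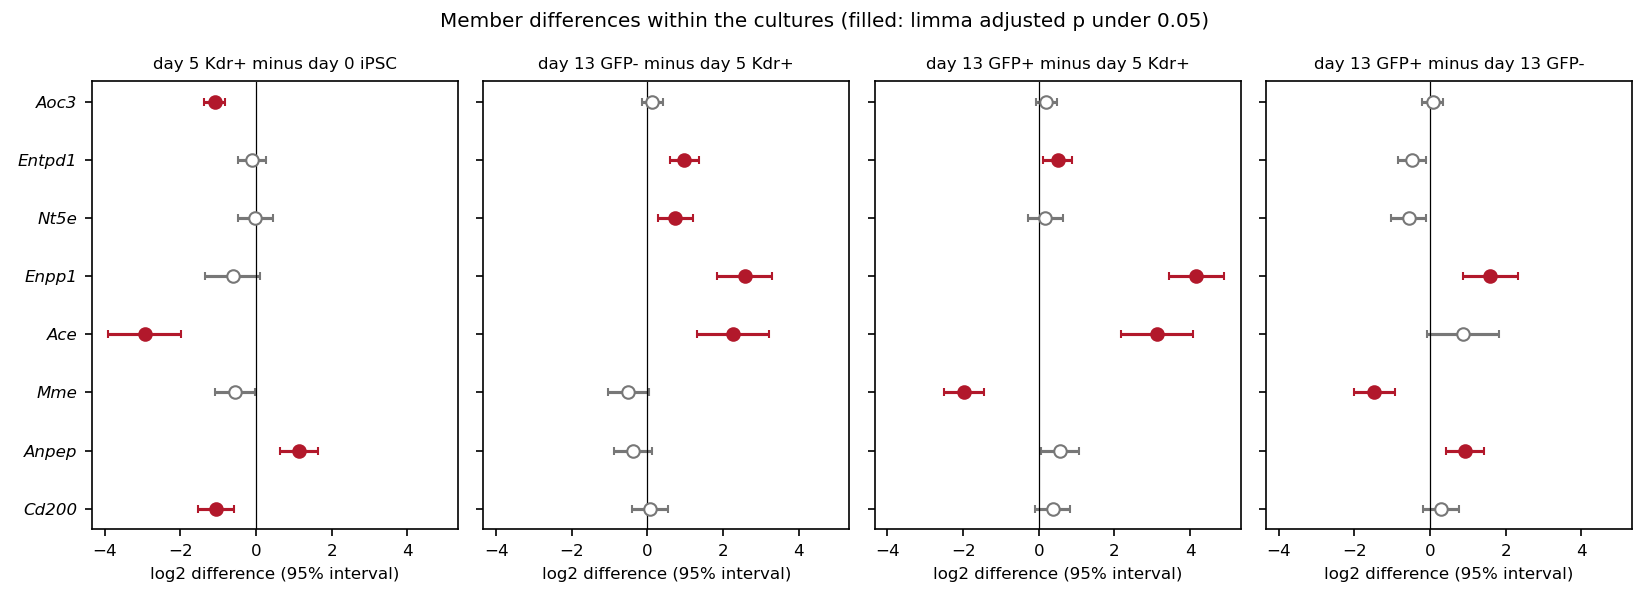
Log2 difference of each of the 8 genes in the 4 comparisons within the cultures, with 95% intervals; filled circles had a limma adjusted p under 0.05. Enpp1 and Ace have the largest differences between day 13 and day 5, and Enpp1, Mme and Anpep pass between the day 13 sorts.

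Over the set, 3 or 4 of the 8 members passed in each culture comparison. At day 5 against day 0, Anpep rose and Aoc3, Ace and Cd200 fell, 4 of 8, where 28.8% of all probe sets passed (14.9% higher, 13.9% lower). For Aoc3 and Cd200 both group means were under the 95th percentile of the receptor probe sets, a range that cannot be told from background. Of the 8, 5 did not overlap between the groups, 1 higher and 4 lower, against 46% of all probe sets (23.4% higher, 22.6% lower). In day 13 GFP- cells against day 5, Entpd1, Nt5e, Enpp1 and Ace rose and 0 fell, where 26% passed, and 5 did not overlap, 4 higher and 1 lower, against 39.6% (18.2% higher, 21.4% lower). In day 13 GFP+ cells against day 5, Entpd1, Enpp1 and Ace rose and Mme fell, where 31.2% passed, and 6 did not overlap, 5 higher and 1 lower, against 45.3% (21.2% higher, 24.1% lower). These comparisons share the day 5 samples. Between the day 13 sorts Enpp1 and Anpep were higher and Mme lower in GFP+ cells, 3 of 8, where 4.53% of probe sets passed. The same 3 did not overlap, against 9.5% of probe sets higher and 9.96% lower without overlap (19.5% together). The median difference of the 8 was 0.18 between the sorts, against 0.01 for all probe sets. In a fit of the day 13 sorts alone, with no block, 0 members passed, and with 1 sample left out 1 to 4 passed. With the block over the 6 day 13 samples, chosen after seeing the data, 4 members passed. The calls over all probe sets were then 1045 higher and 1085 lower, against 508 and 634 in the fit of all 15 samples.

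**Figure D4:**
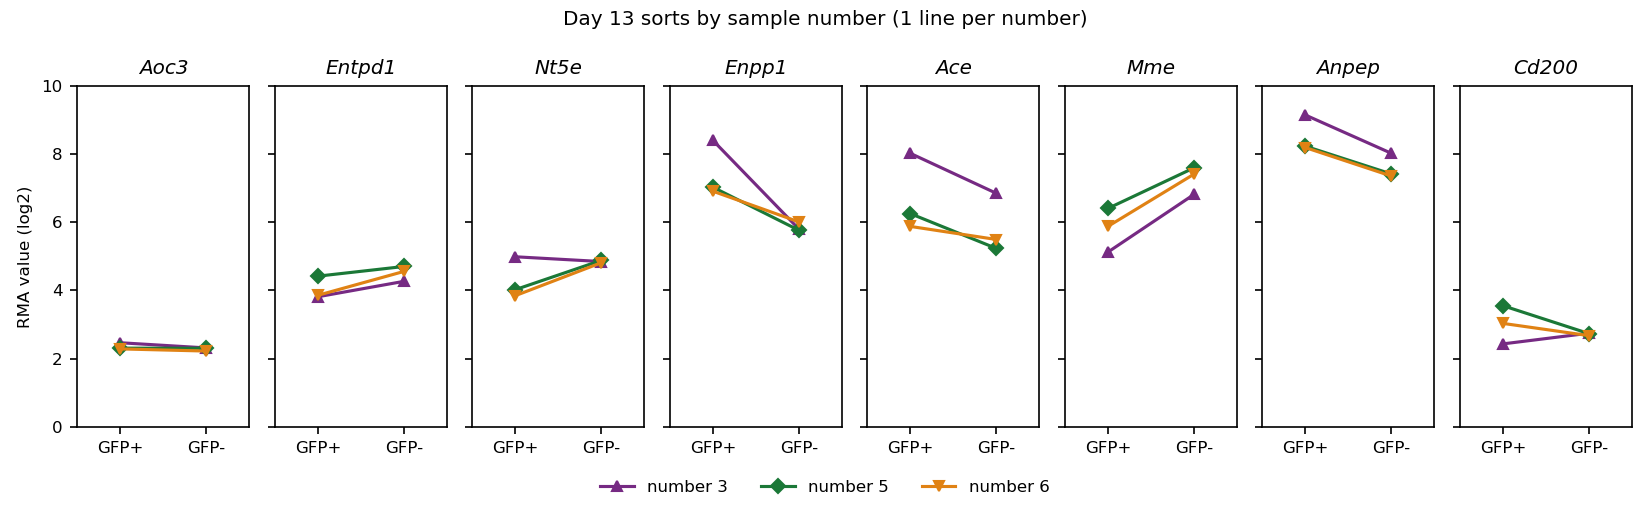
RMA value (log2) of each gene in the day 13 GFP+ and GFP- samples, with 1 line per sample number. Enpp1, Ace, Anpep and, by 0.15 or less, Aoc3 are higher and Mme and Entpd1 are lower in GFP+ cells for all 3 numbers, and number 3 lies apart for Ace, Mme and Anpep.

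Markers of other cells moved with the day 13 sort. Over all probe sets, 2.02% were higher and 2.52% lower in GFP+ than in GFP- cells. Of 7 epithelial markers, 6 were lower in GFP+ than in GFP- cells, and the list averaged 4.61 to 5.17 per GFP+ sample, against 6.65 to 6.91 per GFP- sample. Of 10 endothelial markers, 3 were lower in GFP+ cells and 0 higher, with list means of 3.93 to 4.07 in GFP+ and 4.48 to 4.67 in GFP- samples. The epithelial cadherin Cdh1 averaged 4.45 in GFP+ cells, against 7.21 in GFP- cells, and the endothelial cadherin Cdh5 4.77, against 6.87. Their part in the differences of Enpp1, Mme and Anpep was not tested, nor was that of the fibroblast, endothelial, leukocyte and adipocyte markers in the aortic levels. The fibroblast gene Dpt averaged 9.63 in aortic cells, against 3.34 in GFP+ and 3.05 in GFP- cells.

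Of the aortic differences, 6 members did not overlap with day 13 GFP+ cells, 4 higher and 2 lower, beside 22.8% and 22.1% of all probe sets (44.9% together). Against day 13 GFP- cells 7 did not overlap, 5 higher and 2 lower, beside 24.5% and 22.6% (47% together). Both comparisons use the same aortic samples.

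Likeness of profiles was the root mean square of the log2 differences across 15 samples, with each gene centred on its own mean, among 23178 named genes. Aoc3 and Cd200 were the closest pair of the set at 0.301, followed by Entpd1 with Cd200 at 0.614 and Aoc3 with Entpd1 at 0.641. Outside the set, the closest to Aoc3 was Ecm2 (0.375) and the closest to Cd200 was Itgbl1 (0.355), and each of these was second for the other. Fam71a (0.277) and Mustn1 (0.302) were closest to Entpd1. Col6a1, a collagen VI chain, was closest to Enpp1 at 0.411, followed by Glipr1 at 0.440. Ace was closest to Ndrg2 (0.526) and Tmtc1 (0.531), Mme to Twistnb (0.333) and Nop58 (0.368), Anpep to Dok1 (0.299) and Evi5l (0.308), and Nt5e to Nhsl1 (0.228) and Esd (0.240). For Aoc3, Cd200 and Entpd1 the likeness rests on the step between aorta and culture, and it is a description over samples that share an array platform and a normalization.

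The other genes of these pathways were followed in 8 lists that leave out the 8 members. Like the members, these lists were chosen with earlier results of these data known. Their counts and p-values are therefore a description and not independent support. Some means of genes named below were under the 95th percentile of the receptor probe sets. They were P2rx1, Dpp4, Alpl, Enpep, Agtr1a, Agtr1b, Phex, Maob and Art3 in GFP+ cells, Lox at day 5 and Car9 in the aorta. The size of differences that use these means depends on the low end of the array. In aortic against day 13 GFP+ cells 17.7% of all probe sets were higher and 19.5% lower (37.2% together; limma, adjusted p under 0.05), with a median difference of 0.07, and between the day 13 sorts 2.02% were higher and 2.52% lower. Of 24 measured genes of extracellular nucleotides and adenosine, 15 were higher and 2 lower in the aorta, with a median of 0.76. P2rx1, the ATP-gated channel of contractile smooth muscle, averaged 7.41 in aortic cells, against 3.71 in GFP+ cells (limma, adjusted p = 1.81e-11). The phosphodiesterase relatives of Enpp1 were also higher: Enpp3 averaged 7.72, against 4.68 (adjusted p = 1.90e-09), and Enpp4 7.01, against 3.94 (adjusted p = 1.07e-08). At day 5 Enpp3 fell by 4.24 on the log2 scale against day 0. Between the sorts 1 of the 24 was higher and 2 lower in GFP+ cells, and 5 passed without both number 3 samples. P2ry6, a UDP receptor, was 1.05 higher in GFP+ cells, and Dpp4, a peptidase that binds adenosine deaminase, averaged 2.70 in GFP+ cells, against 5.08 in GFP- cells (adjusted p = 3.06e-05).

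Of 13 genes of pyrophosphate handling and mineralisation, 7 were higher and 1 lower in aortic than in day 13 GFP+ cells, with a median of 0.69. Mgp, the matrix inhibitor of calcification, averaged 11.35 in aortic cells, against 9.66 in GFP+ cells (limma, adjusted p = 0.000788), and was 4.73 higher in GFP+ cells than at day 5. Bmp2 was 2.53 higher in aortic than in GFP+ cells, and lower in GFP+ than in GFP- cells, at a difference of -1.37 (adjusted p = 0.001). Ank, which moves pyrophosphate out of the cell, was 1.37 higher in GFP+ than in GFP- cells (adjusted p = 0.00859), though not in a fit of the day 13 sorts alone (0.121). Alpl, the phosphatase that removes pyrophosphate, fell by 3.22 on the log2 scale in GFP+ cells against day 5.

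The partners of the peptidases were mixed. Of 17 genes of angiotensin and kinin signalling, 3 were higher and 4 lower in aortic than in GFP+ cells, with a median of 0.03. Enpep, the aminopeptidase that converts angiotensin II further, averaged 7.60 in aortic cells, against 3.34 in GFP+ cells (limma, adjusted p = 5.43e-13). The angiotensin receptors Agtr1a and Agtr1b were 2.27 and 1.65 higher, near-identical copies whose probe sets may share signal. Between the sorts 1 of the 17 passed, Nln, an oligopeptidase, with a difference of -0.42 (adjusted p = 0.0285), and it was lost in a fit of the sorts alone (0.105) and without both number 3 samples (0.104). Of 19 neprilysin substrates and their receptors, 9 were higher and 0 lower in the aorta, with a median of 0.29. Npr1, the receptor of atrial natriuretic peptide, averaged 8.04 in aortic cells, against 4.51 in GFP+ cells, and Calcrl, a receptor subunit for adrenomedullin and calcitonin gene-related peptide, 7.47, against 5.17. Calcrl was lower in GFP+ than in GFP- cells, at -1.54 (adjusted p = 4.37e-05), and Adm, encoding adrenomedullin, 1.10 higher (0.0175), a call lost without GFP- number 5 (0.0578) or GFP- number 6 (0.0651) and in a fit of the sorts alone (0.172).

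Of 23 other membrane peptidases, 8 were higher and 3 lower in aortic than in GFP+ cells, with a median of 0.10. Phex averaged 6.15 in aortic cells, against 2.37 in GFP+ cells, and the carboxypeptidase Cpm 4.02, against 6.75 (limma, adjusted p = 4.57e-10 and 1.72e-07). Between the sorts 4 were higher and 2 lower in GFP+ cells, among them the serine protease Tmprss2 at -2.37. Of 10 amine oxidases, 2 were higher and 3 lower in the aorta, with a median of -0.10. Maob, a mitochondrial monoamine oxidase, averaged 7.13 in aortic cells, against 2.82 in GFP+ cells (adjusted p = 2.27e-11). Loxl2, a matrix cross-linking oxidase, averaged 6.22, against 8.70. Lox averaged 8.99, against 10.21, a fall of 1.22 on the log2 scale (adjusted p = 0.0305) that was lost under cyclic loess (0.132) and without aortic number 1 (0.0602), aortic number 2 (0.0908), GFP+ number 5 (0.0938) or GFP+ number 6 (0.0996). Against day 5, 6 of the 10 were higher in GFP+ cells and 0 lower, where 14.3% of all probe sets were higher and 16.9% lower, with Lox up by 7.30, and against GFP- cells Loxl1 and Loxl3 were higher by 1.40 and 1.29.

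Of 14 immunoglobulin-like surface checkpoint genes beside Cd200, 7 were higher and 2 lower in aortic than in GFP+ cells, with a median of 0.51. Thy1 and Vtcn1 were higher by 1.99 and 1.98, and Cd24a, a small glycoprotein ligand, was lower, at -3.46 (limma, adjusted p = 2.84e-08). Between the sorts 1 passed, Cd24a, at -1.08 in GFP+ cells (adjusted p = 0.0237), and it was lost after a repeated quantile normalization (0.0507), after cyclic loess (0.0654) and without both number 3 samples (0.0884). Of 19 other GPI-anchored and surface enzymes, 7 were higher and 6 lower in the aorta, with a median of 0.23. Art3 was 2.95 higher, and Prnp and Car9 differed by -2.13 and -1.92 on the log2 scale. Between the sorts the carbonic anhydrase Car4 was 10.8-fold lower in GFP+ cells (adjusted p = 1.90e-06) and Lpl, lipoprotein lipase, 3.99-fold higher (adjusted p = 0.00341), which was lost in a fit of the sorts alone (0.0614).

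**Figure D5:**
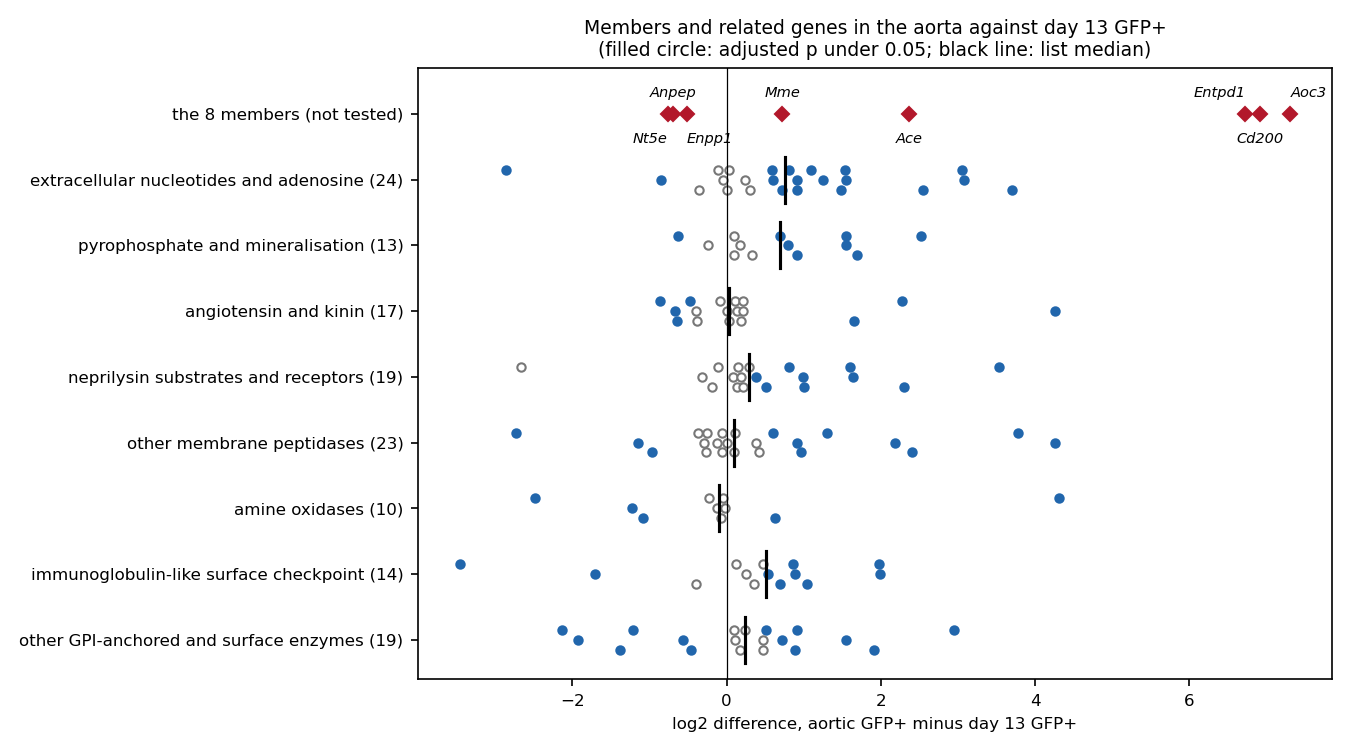
Log2 difference between aortic and day 13 GFP+ cells for the 8 genes (diamonds, not tested) and for the genes of 8 related lists (circles, filled where the limma adjusted p was under 0.05), with the median of each list as a black line. Aoc3, Cd200 and Entpd1 lie at 6.72 to 7.31, beyond every gene of the lists.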

How the data were processed

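Total RNA was extracted with QIAzol, labelled with biotin and hybridised, per the labels' protocols. The deposited values are log2 expression values made by the authors with RMA (affy 1.36.1 in R 2.15.1, per the submitters' processing notes). That they are on a log2 scale was inferred from their range. No genome build for the array is named in the sources used here. Sample medians lay between 4.084 and 4.294, and 0 pairs of samples were identical.

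Of 25206 probe sets, 23185 were named through the platform's probe table. It named 7 of the 8 members, and Enpp1 was named through its Entrez ID in RefSeq. A single limma model (limma 3.58.1, R 4.3.3) held 1 mean for each group of all 15 samples, with empirical Bayes moderation (10 residual and 5.09 prior degrees of freedom). Benjamini-Hochberg adjustment ran over all probe sets in each comparison, with a threshold of 0.05 and no filter on low values. Errors are SE of differences or SD of levels. Precision is limited by having 3 arrays in a group.

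The members and lists were chosen with earlier results of these data known. Members were tested in the 4 comparisons within the cultures. Comparisons with day 13 GFP+ cells share those samples with the aortic contrast in view when members were chosen. Named list genes are, per list, the largest called differences: up to 3 in aortic minus day 13 GFP+, 2 between the day 13 sorts and 2 in the other culture comparisons. Of the latter only some are printed. Cell type markers Acta2, Myh11, Pecam1, Cdh5, Ptprc and Dpt were named as defining markers, and Adipoq, Fabp4 and Cdh1 after their values were seen.

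Pairing was checked by correlating deviations from group means across probe sets. Day 13 samples of equal number correlated at 0.597, 0.403 and 0.397, so the numbers were taken to pair the sorts. Unequal numbers 5 and 6 also correlated, at 0.345 and 0.278, and those that involve number 3 at -0.419 to -0.5. Deviations were taken from means of 3 samples, so with number 3 apart in both sorts, numbers 5 and 6 deviate together. These values therefore hardly separate pairing by number from a crossing of numbers 5 and 6. The block fits rest on that pairing. Across the other stages, samples of equal number correlated at -0.091 to 0.079 and those of unequal number at -0.0881 to 0.112. The fit was also run on simulated data with independent noise in each sample. That run cannot assess the shared deviations of day 13 samples of equal number. Alternatives were 3 scalings, a filter on low levels, trend and robust moderation, a fit of only the groups compared, replicate blocks and leaving out samples.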

Additional observations from a re-analysis of the deposited data

How the results depend on the processing

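Median centring, a repeated quantile normalization and cyclic loess moved a sample median by at most 0.107, 0.107 and 0.151. The difference of a single gene could move by more. For Anpep in aortic minus GFP- it went from 0.23 to 0.69 under cyclic loess. Of the member differences under all alternatives, 613 stayed the same, 18 lost the threshold, 12 gained it and 10 reversed. A further 3, aortic differences without a test, moved by more than the replicate spread. For tested differences, the same means the same direction and side of the threshold. For the untested aortic differences it means the same direction and a move within the replicate spread. The 613 hold both kinds and are not a count of stable calls. The reversals were small differences that did not pass: for Nt5e at day 5 minus day 0, 0.065 under median centring, 0.063 under quantile normalization and 0.012 under cyclic loess; for Cd200 in GFP- minus day 5, -0.025 under median centring; and for Nt5e in GFP+ minus day 5, -0.18 without both number 3 samples. Leaving out 1 sample at a time, day 5 minus day 0 ran between -0.21 and 0.00137 for Entpd1 and between -0.145 and 0.039 for Nt5e. Over the same omissions GFP- minus day 5 ran between -0.015 and 0.186 for Cd200, and GFP+ minus day 5 between -0.18 and 0.39 for Nt5e.

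The comparison of the day 13 sorts depended most on the fit. With only the 2 groups compared, 193 probe sets were higher and 266 lower, and 0 members passed by limma, although 4 had an unadjusted p under 0.05, against 5 in the fit of all samples. With 1 sample left out, 307 to 537 probe sets were higher, 346 to 584 lower, and 1 to 4 members passed. The lowest member count came without GFP- number 5, and the lowest probe set counts without GFP+ number 6. A replicate block over only the day 13 sorts gave 1045 higher and 1085 lower. The planned replicate block over the 12 cultured samples gave 635 higher and 827 lower with 3 members passing, and Anpep in GFP+ minus day 5 was the 1 member call that it changed. Members passing with 1 sample left out numbered 4 to 4 at day 5 minus day 0, 3 to 4 in GFP- minus day 5 and 3 to 5 in GFP+ minus day 5. With only probe sets above the median mean level, 2546 were higher in aortic than in GFP+ cells and 2730 higher than in GFP- cells, since fewer were tested. Mme at day 5 minus day 0 passed in a fit of those groups alone (adjusted p = 0.00267). Cyclic loess moved aortic minus GFP- to -1.43 for Nt5e, -0.36 for Mme and 0.69 for Anpep. With the block over only the day 13 sorts, 6 nucleotide genes, 5 neprilysin genes, 2 angiotensin genes and 2 checkpoint genes passed between the sorts. With only probe sets above the median mean level, 10 nucleotide genes, 4 other peptidases and 7 other surface enzymes passed in aortic minus GFP+. Where not stated, the cause of a change was not tested. Low levels of Aoc3 in culture, of Cd200 at days 5 and 13, of Entpd1, Enpp1 and Ace at day 5 and of Nt5e in the aorta limit what the array can resolve there.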
